A study of Mus musculus with 2 samples.

Results

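The immunity-related GTPases (IRGs) are a family of interferon-inducible GTPases, and 7 of them, *Irgm1*, *Irgm2*, *Igtp* (*Irgm3*), *Iigp1* (*Irga6*), *Tgtp1*, *Tgtp2* (both *Irgb6*) and *Ifi47* (*Irgd*), were followed through the cell types of the mouse temporomandibular joint (TMJ). They were chosen by name: each symbol had to equal the gene name of a feature in the deposited count tables, and each of the 7 matched 1 of the 32285 genes in both tables. No measured value entered that choice.

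The counts came from scRNA-Seq of 2 groups of female C57BL/6 WT mice, injected at 8 weeks of age (8 to 10 weeks in the labels) into both TMJs with 10 µL of PBS or of 5 mg/mL complete Freund's adjuvant (CFA), an oil emulsion of killed mycobacteria that produces the inflammatory TMJ osteoarthritis (TMJOA) studied here. The joints were taken 3 weeks after the injection, 3 tissues per group were pooled, and the digest held bone of condyle and temporal fossa with disc, ligament and muscle. CD45+ cells were then depleted with magnetic beads. Each group was thus 1 library, with no allele or agent shared by the groups beyond the procedure itself. No difference below has a replicate check, and a difference between the pools of animals, the digestions or the libraries cannot be told apart from one between CFA and PBS.

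In the analysis 2667 of 7671 PBS barcodes (27201994 UMIs) and 4014 of 5709 CFA barcodes (44432717 UMIs) were kept. These had at least 500 genes, at most 10% mitochondrial and at most 1% hemoglobin UMIs. The first 2 limits alone left 5845 PBS and 4353 CFA barcodes, so the hemoglobin limit removed a larger part of the PBS library. A UMI is a unique molecular identifier, which counts 1 captured transcript end. The median kept cell held 7022 UMIs in PBS and 6509.5 in CFA. The libraries shared 10 barcode sequences, 2 of them among kept cells. The kept cells formed 37 clusters, of which 31 were named in 20 classes as "X-like" from canonical markers, with the family and other interferon genes left out of the clustering. Since CD45+ cells had been depleted, the number of leukocytes was set in part by the sort, and cell numbers are given only as what stands behind a level.

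IRGs are part of the cell-autonomous defence of mouse cells against intracellular bacteria and protozoa. Interferon γ, acting through the receptor, the kinases JAK1 and JAK2 and transcription factors such as IRF1, is the best known inducer of the family, and type I interferon induces several members. The effector members *Iigp1*, *Tgtp1*, *Tgtp2* and *Ifi47*, called GKS proteins for the sequence of their nucleotide-binding motif, load onto the vacuole of a pathogen and disrupt it, together with the guanylate-binding proteins (GBPs). The regulatory members *Irgm1*, *Irgm2* and *Igtp*, called GMS proteins, sit on the cell's own membranes and hold the effectors inactive there, and the Atg8 conjugation machinery of autophagy helps to place both groups. The 3 regulatory and 4 effector members are therefore given apart where they differ.

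In GRCm38 (mm10) 6 of the members lie on chromosome 11. *Ifi47* (ENSMUSG00000078920) is at chr11:49076587-49096974 on the plus strand and *Tgtp2* (ENSMUSG00000078921) at chr11:49057194-49064206 on the minus strand. *Tgtp1* (ENSMUSG00000078922) is at chr11:48985327-48994172 and *Irgm1* (ENSMUSG00000046879) at chr11:48861968-48871683, both on the minus strand. *Igtp* (ENSMUSG00000078853) at chr11:58199556-58207591 and *Irgm2* (ENSMUSG00000069874) at chr11:58199618-58222782 lie together on the plus strand.

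Promoters are shown because most members moved together below and because of 2 sequence patterns that interferon signals are known to use. RefSeq promoters of GRCm38.p6, each 250 bases before to 50 after a start site, were searched on both strands for TTCNNNGAA, the letters of the palindromic interferon γ-activated site (GAS), and for 2 runs of GAAA with any 2 bases between them, the letters of the interferon-stimulated response element (ISRE) bound by IRFs. The first occurred in 2726 of 32851 promoters (8.30%), the second in 1131 (3.44%) and both in 149 (0.454%). Promoters of members were matched by symbol on chromosome 11, with the first one listed taken for each of 6 members. *Iigp1*, on another chromosome, was outside this match. The stretches around the matches of 5 members read as follows, 5′ to 3′ on the strand of the gene, with the matched letters in capitals.
Irgm2, chr11:58214882-58214942, plus strand: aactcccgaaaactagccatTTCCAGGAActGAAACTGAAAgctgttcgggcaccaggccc
Igtp, chr11:58199491-58199551, plus strand: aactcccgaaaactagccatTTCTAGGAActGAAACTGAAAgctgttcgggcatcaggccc
Tgtp1, chr11:48992294-48992354, minus strand: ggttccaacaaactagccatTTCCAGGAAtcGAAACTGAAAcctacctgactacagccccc
Tgtp2, chr11:49064253-49064313, minus strand: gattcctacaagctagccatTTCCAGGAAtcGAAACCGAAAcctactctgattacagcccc
Irgm1, chr11:48871415-48871470, minus strand: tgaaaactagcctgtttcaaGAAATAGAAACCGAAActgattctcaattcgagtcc

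*Irgm2*, *Igtp*, *Tgtp1* and *Tgtp2* each carried both patterns, with the starts 11 bases apart and the GAS-like letters first. *Irgm1* carried 2 overlapping ISRE-like matches and no GAS-like match, and the *Ifi47* window held neither pattern. The spacing of 11 bases was noticed after the sequences had been read, and 5 of the 32851 promoters (0.0152%) had it, those of these 4 members and of *Gm12185*, a neighbouring IRG gene. From the start site the GAS-like matches began at −75 in *Irgm2*, −45 in *Igtp*, −88 in *Tgtp1* and −81 in *Tgtp2*. A match is a description of the letters and does not show that a factor binds.

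*Iigp1* (ENSMUSG00000054072), the member away from chromosome 11, is at chr18:60376027-60392634 on the plus strand. The near-identical members limit what a UMI can be assigned to. Of the 90-base stretches in the last 500 transcript bases, where 3′ reads fall, 74.0% in *Tgtp1* and 100% in *Tgtp2* occur in another gene (the other *Tgtp* gene or, for *Tgtp1*, also *Gm12185*), against 0% in *Irgm1*, *Irgm2*, *Igtp* and *Iigp1* and 1.76% in *Ifi47*. The split between *Tgtp1* and *Tgtp2* is therefore uncertain in every value below. *Igtp* and *Irgm2* share 162 exonic bases on the same strand, *Tgtp1* shares 223 with *Gm12185*, and *Ifi47* shares 111 with *Olfr56*.

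Levels are given in CPM, the UMIs of a gene per 1000000 UMIs of the cells compared, which for 3′ counts do not scale with transcript length. A ratio is CFA over PBS with an exact conditional binomial 95% interval, and intervals cover counting error only. Over all kept cells the summed family stood at 599 CPM in PBS and 1011 in CFA (ratio 1.69, 1.66 to 1.72). *Igtp* had the highest ratio, from 29.9 to 103 (3.44, 3.19 to 3.71), and *Ifi47* the next, from 27.8 to 87.3 (3.15, 2.91 to 3.41). *Iigp1*, the most abundant member, went from 457 to 652 (1.43, 1.40 to 1.46), the lowest ratio of the 7. The regulatory members together were 2.49 times as high in CFA (2.38 to 2.60) and the effectors 1.55 times (1.52 to 1.58). The median gene had a ratio of 0.865 over all kept cells (−0.209 on the log2 scale), whereas within the classes and clusters compared it lay between 0.912 and 1.06, and relative to it the family ratio was 1.95.

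The order of the cell types was led by the blood vessel lining in both libraries (plot of summed levels by class). In PBS, endothelial-like cells held 1970.1 CPM of the family (1934 to 2007), ahead of lymphatic-like cells with 742 (18 cells), mural-like cells with 497 and osteoblast-like cells with 424 (35 cells). The last 2 had overlapping intervals, as did most neighbours further down, to satellite cell-like cells at 52.6, lining fibroblast-like cells at 39.2 and chondrocyte-like cells at 16.8, the lowest of 18 classes. In CFA, endothelial-like cells still led with 3062 (3020.3 to 3104), and fibroblast-like cells came next among the classes ranked, with 1647. Satellite cell-like (1498) and neutrophil-like cells (1361) followed with overlapping intervals, tenocyte-like (973) and mural-like cells (960.3) likewise, and later B-like cells were the lowest of 16 classes at 90.1. The ranking left out the classes with the fewest cells. Among these were the 10 lymphatic-like CFA cells, with a family level of 2173 CPM, above fibroblast-like cells.

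**Figure D1:**
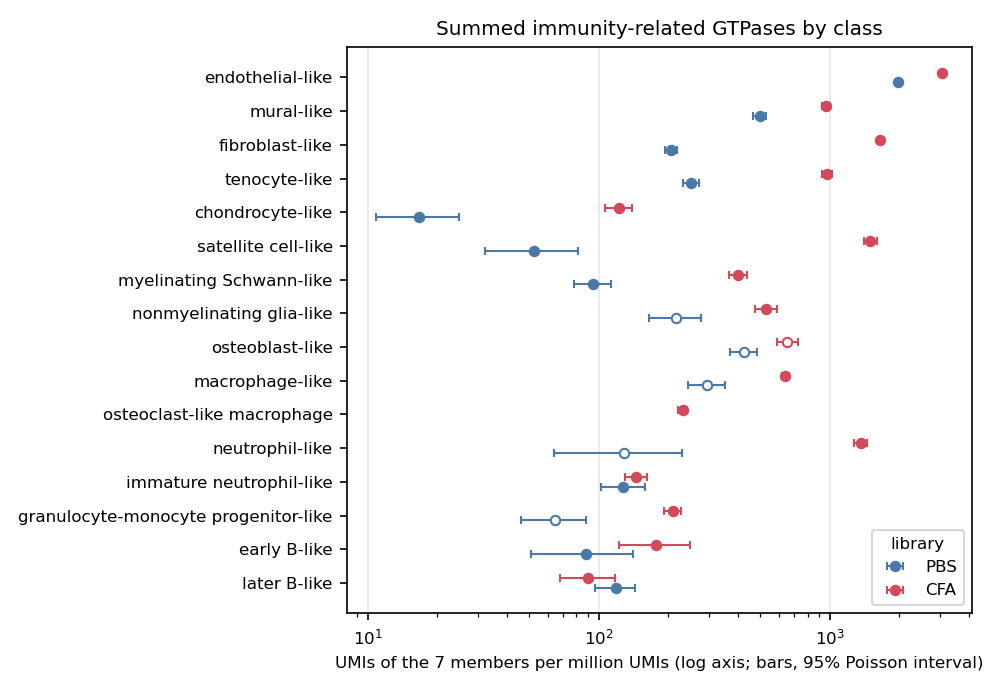
Summed level of the 7 members in CPM (log axis) in each cell class of the PBS (blue) and CFA (red) libraries, with 95% Poisson intervals of the count. Open circles are classes with fewer than 50 cells in that library. Endothelial-like cells were highest in both libraries, and among the classes drawn with filled circles for PBS and CFA alike the widest gaps were in satellite cell-like, fibroblast-like and chondrocyte-like cells.

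Endothelial-like cells (688 PBS, 942 CFA cells), in which all 8 endothelial markers were detected, carried every member in both libraries. *Igtp*, a regulator of the GMS group, stood at 54.4 CPM in PBS and 278 in CFA (5.11, 4.53 to 5.78). *Irgm2* went from 86.0 to 192 (2.23, 2.01 to 2.48). *Irgm1*, whose loss is known to leave mice unable to control several infections, went from 52.2 to 86.9 (1.67, 1.45 to 1.92). All 3 regulators were thus higher in CFA, and as a group they went from 193 to 557 (2.89, 2.70 to 3.09).

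Among the effectors of the same cells, *Iigp1* had the highest level and the lowest ratio, with 1626 CPM in PBS and 2136 in CFA (1.31, 1.28 to 1.35). *Tgtp2* went from 68.4 to 187 (2.73, 2.44 to 3.07) and *Tgtp1* from 28.6 to 54.3 (1.90, 1.57 to 2.30). *Ifi47* went from 54.9 to 128 (2.33, 2.05 to 2.66). The effectors summed to 1778 in PBS and 2505 in CFA (1.41, 1.38 to 1.44), an interval wholly below that of the regulators. That sum was mostly *Iigp1*, with 9320 of the 10191 effector UMIs in PBS. The ratios of the other effectors lay between those of the regulators *Irgm1* and *Igtp*. At least 2-fold higher in CFA were 4 of the 7 members (*Igtp*, *Tgtp2*, *Ifi47* and *Irgm2*), against 5.01% of all 12646 genes with at least 20 UMIs in this class.

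The share of endothelial-like cells with a UMI depends on depth, which was 5698 UMIs for the median PBS and 4745 for the median CFA cell, so cells were also thinned to 1000 UMIs. As counted, 83.7% of the PBS cells and 84.3% of the CFA cells had *Iigp1*, against 59.4% (55.6% to 63.1%) and 67.1% (64.0% to 70.1%) after thinning. *Igtp* was seen in 24.0% and 51.4% as counted, and in 4.51% (3.09% to 6.34%) and 15.8% (13.5% to 18.3%) after thinning. *Irgm2* had thinned shares of 8.01% and 18.8%, and *Tgtp2* of 8.59% and 18.05% (as counted, 39.7% and 58.0%, 34.0% and 53.2%). *Iigp1* was therefore already carried by most PBS endothelial-like cells, whereas *Igtp* was found in few PBS and a larger share of CFA cells, with intervals that did not overlap. Barcodes with at least 50% hemoglobin UMIs, which should lack *Iigp1*, stood in for free RNA. *Iigp1* was in 3.87% of the 310 PBS (median 9020 UMIs) and 4.74% of the 190 CFA barcodes of that kind (median 8312 UMIs), below the endothelial-like shares. Most of those UMIs were hemoglobin, so the barcodes held fewer UMIs of other genes (919326 of 3064729 in PBS and 530438 of 1633014 in CFA). *Igtp* was in 11.9% of these PBS and 24.7% of these CFA barcodes, at 51.1 and 140 CPM without hemoglobin UMIs (2.73, 1.87 to 4.02). The endothelial-like *Igtp* level in PBS, 54.4 CPM, lay within the interval of that reference (37.6 to 68.0). The level in CFA, 278 CPM, lay above it (110 to 175). Erythroid-like PBS cells themselves held *Igtp* at 19.9 CPM (30 UMIs), and PBS satellite cell-like cells held 0 UMIs. Whether the *Igtp* of the hemoglobin-rich barcodes is free RNA alone was not tested.

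The endothelial-like cells were also read by vessel segment. In capillary endothelial-like cells (458 and 615 cells, median 5240.5 and 4011 UMIs) the family went from 2114 to 3454 CPM (1.63, 1.58 to 1.69), with *Iigp1* from 1801 to 2544 (1.41, 1.36 to 1.46) and *Igtp* from 39.1 to 217 (5.56, 4.59 to 6.78). *Tgtp2* stood at 78.5 and 249 (3.17, 2.75 to 3.67). Here 5 of 7 members were at least 2-fold higher, against 5.30% of all genes compared.

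In venular endothelial-like cells (105 and 183 cells), the segment where leukocytes leave the blood and led here by *Plvap*, *Selp* and the interferon-inducible *Ubd*, the family had its highest ratio of the 3 segments, from 1547 to 2993 CPM (1.93, 1.85 to 2.03). *Iigp1* went from 1215 to 2017 (1.66, 1.57 to 1.75), *Igtp* from 88.4 to 358 (4.05, 3.37 to 4.90) and *Tgtp2* from 31.3 to 133 (4.25, 3.12 to 5.91). At least 2-fold higher were 5 of 7 members, against 5.45% of all genes. The cells differed in how many members they held at once: as counted, a UMI of all 7 members was found in 2 of 105 PBS venular cells (1.90%) and in 46 of 183 CFA cells (25.1%), at median depths of 11117 and 12553 UMIs. After thinning, at least 2 members were found in 19.0% (12.0% to 27.9%) and 45.9% (38.5% to 53.4%).

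Arterial endothelial-like cells (125 and 144 cells, median 5957 and 5728.5 UMIs) differed from both. Their summed family was 2122 in PBS and 2151 in CFA (1.01, 0.955 to 1.08), with *Iigp1* lower in CFA, at 1313 against 1658 CPM (0.792, 0.737 to 0.851). *Igtp* was higher here too, from 54.2 to 238 (4.39, 3.27 to 5.99), as were *Irgm2* (1.83, 1.43 to 2.36) and *Tgtp2* (1.71, 1.31 to 2.23). The intervals of *Irgm1* (1.22, 0.863 to 1.72) and *Tgtp1* (0.970, 0.639 to 1.47) held 1. Only *Igtp* passed 2-fold, 1 of 7, against 5.99% of all genes. The *Iigp1* ratio stayed between 0.729 and 0.894 in the 9 alternative settings that gave an arterial cluster, but the share of arterial cells with an *Iigp1* UMI after thinning was 55.6% (46.5% to 64.6%) in PBS and 54.9% (46.4% to 63.2%) in CFA, a difference within the intervals.

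**Figure D2:**
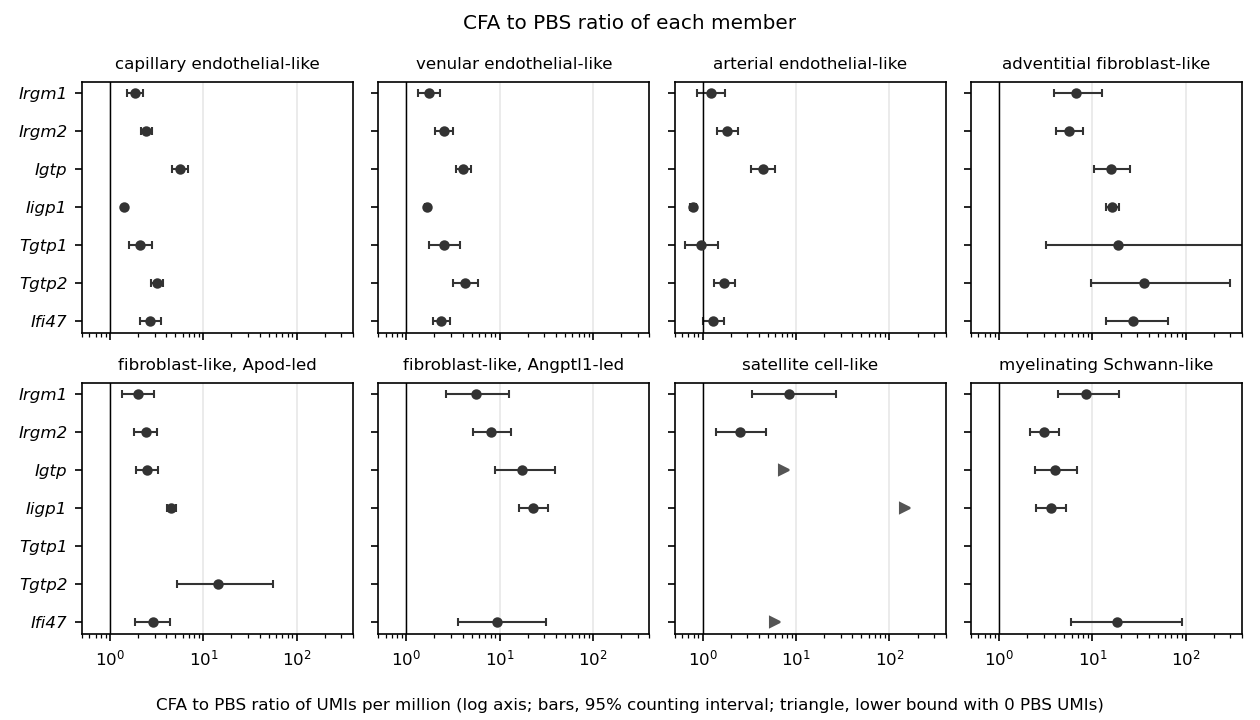
CFA to PBS ratio of CPM (log axis) for each member in 8 clusters, with 95% counting intervals, the black line marking a ratio of 1. Triangles are lower bounds for members with no PBS UMI, set against 3 counts, members with fewer than 20 UMIs in satellite cell-like, Schwann-like and the *Apod*- and *Angptl1*-led cells are not drawn, and the upper end of *Tgtp1* in adventitial fibroblast-like cells lies beyond the axis. *Iigp1* was the member with the lowest ratio in the 3 endothelial panels and lay left of 1 in the arterial panel.

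Within the capillary cells, 3 clusters held *Iigp1* at different levels in both libraries. The *Timp4*-led cluster went from 1156 to 2055 CPM (1.78, 1.67 to 1.89), the *Btnl9*-led cluster from 1757 to 1994 (1.14, 1.06 to 1.22), and the *Hdac9*-led cluster from 2864 to 3747 (1.31, 1.24 to 1.38). The last had the highest *Iigp1* level of the 5 endothelial-like clusters in each library. The *Igtp* ratios in the 3 clusters were 6.25, 4.98 and 5.26. Beside these, a cluster with endothelial markers but a median of 1557 UMIs stayed unnamed, and its *Iigp1* was lower in CFA, 1912 against 2467 (0.775, 0.692 to 0.868, 73 and 200 cells), with *Irgm2* higher (4.84, 2.41 to 11.02).

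The 7 macrophage markers summed to 18.3 CPM in PBS and 36.8 in CFA endothelial-like cells, with 6 of 7 detected and 1 at 0 in each library, and no single marker was above 13.95. Their part in the family levels was not tested. By segment the sums were 3.39 and 39.1 in capillary cells, moving with the family, 56.4 and 37.8 in venular cells, and 10.8 and 27.7 in arterial cells.

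**Figure D3:**
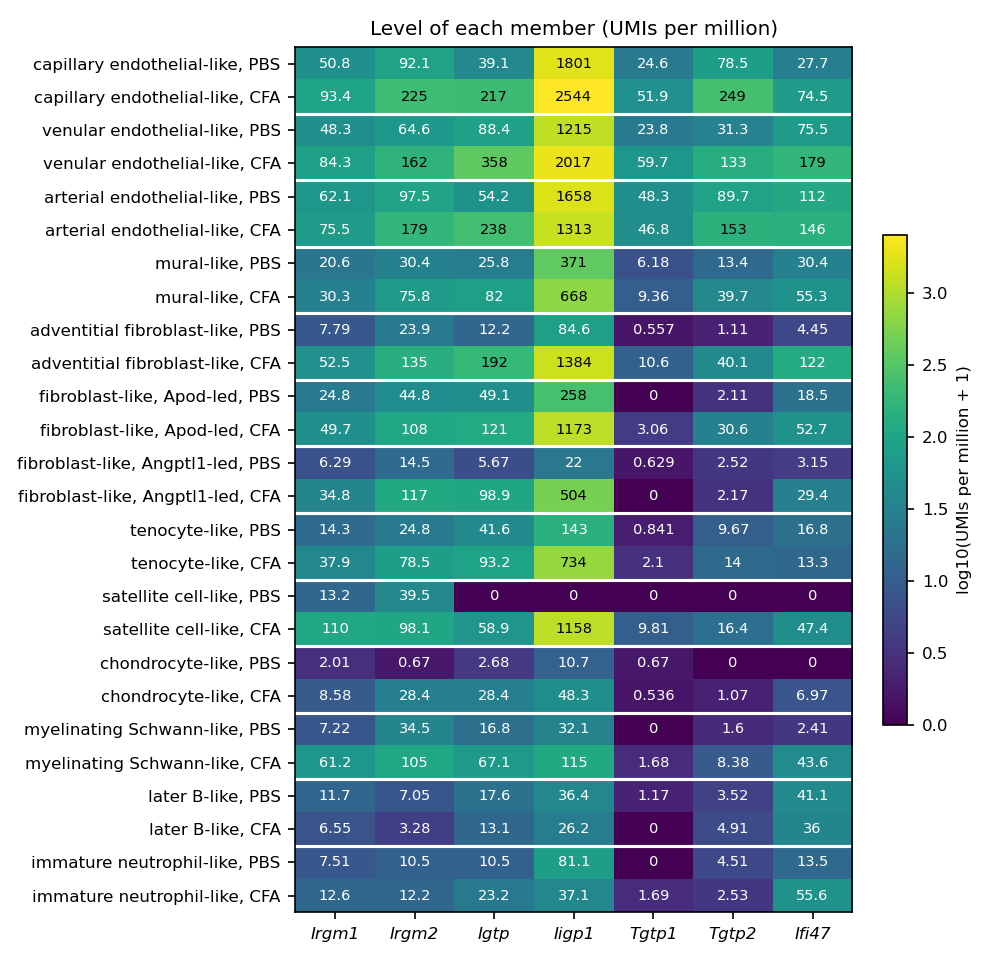
Level of each member in CPM (numbers in the cells, colour on a log10 scale of the level plus 1) in 13 clusters or classes with at least 50 cells in both libraries, PBS above CFA. *Iigp1* was the highest member in nearly all lines, and the PBS line of satellite cell-like cells held *Irgm1* and *Irgm2* alone.

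Fibroblast-like cells (468 PBS, 367 CFA cells), the matrix-forming cells of capsule, ligament and adventitia, had a larger family ratio than any endothelial-like cluster. *Iigp1* went from 128 to 1185 CPM (9.26, 8.55 to 10.0) and the summed family from 205 to 1647 (8.04, 7.55 to 8.57). All 7 of 7 members were at least 2-fold higher, against 7.46% of the 13017 genes compared. The largest fibroblast-like cluster was an *Apod*-led one in PBS (213 cells) and an adventitial one led by *Pi16* and *Mfap5* in CFA (162 cells), so the clusters are given on their own.

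In adventitial fibroblast-like cells (132 and 162 cells, median 13506.5 and 18207.5 UMIs) *Iigp1* went from 84.6 to 1384 (16.4, 13.9 to 19.4) and *Igtp* from 12.2 to 192 (15.7, 10.3 to 25.2). *Ifi47* went from 4.45 to 122 (27.5, 13.8 to 64.1). *Irgm1* stood at 7.79 and 52.5 (6.74, 3.91 to 12.6) and *Irgm2* at 23.9 and 135 (5.65, 4.12 to 7.92). The effectors as a group were thus 17.2 times as high in CFA (14.7 to 20.2) and the regulators 8.64 times (6.88 to 10.99), the opposite order to the group sums of endothelial-like cells. The effector sum was mostly *Iigp1* here too, with 4456 of the 5013 UMIs in CFA. All 7 of 7 passed 2-fold, against 8.32% of all genes, although *Tgtp1* rested on 1 and *Tgtp2* on 2 PBS UMIs. After thinning, any member was present in 8.33% (4.23% to 14.4%) of the PBS cells and 59.9% (51.9% to 67.5%) of the CFA cells, and as counted in 49.2% and 93.8%. The family ratio of 14.4 (12.6 to 16.4) was 5.68 with log-normalized counts without integration, the lowest of 9 alternatives, and 17.8 without the cells of the 5% highest doublet scores, the highest.

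The *Apod*-led cluster (213 and 148 cells) had higher PBS levels and lower ratios. *Iigp1* went from 258 to 1173 (4.55, 4.10 to 5.04), *Igtp* from 49.1 to 121 (2.48, 1.91 to 3.23) and the family from 397 to 1538 (3.87, 3.56 to 4.22), with 6 of 6 members compared past 2-fold, against 9.31% of all genes. The *Angptl1*-led cluster (123 and 57 cells) started lowest, with *Iigp1* at 22.0 in PBS and 504 in CFA (22.9, 16.2 to 33.3) and the family at 54.8 and 787 (14.4, 11.5 to 18.2). Here 5 of 5 members compared passed 2-fold, against 4.95%. *Tgtp1* and *Tgtp2* had at most 4 UMIs in either library of that cluster.

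The endothelial markers in fibroblast-like cells summed to 174 CPM in PBS (8 of 8 detected) and 20.2 in CFA (7 of 8), lower where the family was higher. The macrophage markers summed to 4.17 (5 of 7) and 47.0 (6 of 7), moving with the family, and in adventitial cells to 4.45 and 60.9, and their part was not tested. The level was spread over the cells: the median CFA adventitial cell held 11.2 family UMIs per 10000, with quartiles of 3.50 and 22.4, and no cell gave more than 3.94% of the UMIs. In PBS the median was 0 and 1 cell gave 19.0%.

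Satellite cell-like cells, the *Pax7*-bearing muscle stem cells (56 PBS, 88 CFA cells, median 6492 and 6884.5 UMIs), showed the widest difference. *Iigp1* had 0 UMIs in PBS and 708 in CFA, a level of 1158 CPM that was at least 147-fold higher than a floor of 3 PBS counts over the class. *Igtp* (0 and 36 UMIs, at least 7.46-fold) and *Ifi47* (0 and 29 UMIs, at least 6.01-fold) were also without a PBS UMI. The regulators *Irgm2*, from 39.5 to 98.1 CPM (2.49, 1.39 to 4.71), and *Irgm1*, from 13.2 to 109.6 (8.33, 3.40 to 26.5), were the members with a PBS UMI. The hemoglobin-rich PBS barcodes held *Irgm2* at 38.1 CPM (26.5 to 52.9) and *Irgm1* at 28.3, so these PBS levels are not read as expression. In CFA those barcodes held *Irgm2* at 90.5 (66.7 to 120.0), an interval that held the satellite cell-like level, and *Irgm1* at 49.0 (32.0 to 71.8), below it. All 5 members with at least 20 UMIs passed 2-fold, against 8.45% of all 6366 genes. For *Iigp1*, *Igtp* and *Ifi47* this was set in advance. They reached 20 UMIs through CFA alone, and any such gene passes 2-fold against the floor in this class. The median ratio of the 3348 genes that had 20 UMIs or more in both libraries of this class was 0.912.

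*Iigp1* was found in 0 of 56 PBS satellite cell-like cells, which allows a share of up to 6.38% with a UMI (exact 95% limit on detection, not on expression), and in 47 of 88 CFA cells (53.4%). After thinning it was in 37.9% of CFA cells (27.7% to 49.0%). No CFA cell held more than 10.6% of the family UMIs. The endothelial markers summed to 18.4 CPM in PBS and 13.1 in CFA, with 4 of 8 at 0 in CFA, and the macrophage markers to 2.63 (1 of 7 detected) and 31.1 (5 of 7). The summed family ratio of 28.5 (18.3 to 46.8) lay between 25.2 and 31.6 in the 11 alternative settings.

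Myelinating Schwann-like cells, the insulating glia of peripheral nerve (261 and 323 cells), held *Irgm2* at 34.5 CPM in PBS and 105 in CFA (3.04, 2.13 to 4.40). *Irgm1* went from 7.22 to 61.2 (8.48, 4.23 to 19.3) and *Iigp1* from 32.1 to 115 (3.58, 2.50 to 5.23). All 5 members compared passed 2-fold, against 5.24%. The share of PBS cells with *Iigp1*, 2.68% at a median of 3711 UMIs, was not above that of the hemoglobin-rich barcodes (3.87%, 2.02% to 6.66%), so it is not read as expression, and the CFA share was 8.98% at 3232 UMIs (thinned, 1.19% and 5.79%). In the hemoglobin-rich barcodes themselves *Iigp1* stood at 26.1 and 86.7 CPM without hemoglobin UMIs (3.32, 1.99 to 5.69), a ratio whose interval overlaps that of the Schwann-like cells. *Irgm2* stood there at 38.1 and 90.5 CPM (2.38, 1.51 to 3.79), with intervals that overlap those of the Schwann-like cells in both libraries. Its PBS level is therefore not read as expression either, although whether the *Irgm2* of those barcodes is free RNA alone was not tested. Endothelial markers moved the same way here, from 126 to 225 CPM over 8 genes (7 and 8 detected), and macrophage markers from 2.41 to 52.0 over 7 genes (3 and 6 detected), and their part was not tested.

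In tenocyte-like cells (186 and 121 cells) *Iigp1* went from 143 to 734 CPM (5.12, 4.52 to 5.80), while *Ifi47* stood at 16.8 and 13.3 with an interval that held 1 (0.792, 0.433 to 1.40). At least 2-fold higher were 4 of 6 members, against 4.01%. A single PBS cell held 33.1% of the PBS family UMIs. The family ratio of 3.87 (3.51 to 4.27) became 10.1 with cells classed singly. Endothelial markers went from 220.0 to 26.6 CPM (8 and 7 of 8 detected), against the direction of the family, and macrophage markers from 5.05 to 26.6 (5 of 7 in both), and their part was not tested.

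Mural-like cells (178 and 221 cells), the pericytes and smooth muscle around vessels, held *Iigp1* at 371 and 668 CPM (1.80, 1.65 to 1.97) and 25.8 and 82.0 of *Igtp* (3.18, 2.32 to 4.44), with 3 of 7 members past 2-fold, against 3.76%. The mural clusters differed in the size of their ratios. In the *Myh11*-led cluster the family went from 557 to 696 (1.25, 1.13 to 1.38) and in the *Actg2*- and *Rgs5*-led cluster from 409 to 1660.0 (4.06, 3.58 to 4.62). Endothelial markers were high in mural-like cells, 1388 CPM in PBS and 548 in CFA with 8 of 8 detected, against the direction of the family. Macrophage markers went with it, from 6.18 to 41.9 CPM (3 and 6 of 7 detected), and the part of either in the family level was not tested. The family ratio over both clusters, 1.93 (1.79 to 2.09), was 1.28 with log-normalized counts without integration and 4.00 with cells classed singly.

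Chondrocyte-like cells (57 and 78 cells) had the lowest PBS level although the median PBS cell held 22156 UMIs. *Iigp1* went from 10.7 to 48.3 (4.49996, 2.63 to 8.21), *Igtp* from 2.68 to 28.4 (10.6, 3.90 to 40.3) and *Irgm2* from 1 to 53 UMIs (42.4, 7.29 to 1706), 3 of 3 members compared past 2-fold against 6.00%. All 3 were higher in the hemoglobin-rich barcodes of each library. Without hemoglobin UMIs *Iigp1* stood there at 26.1 and 86.7 CPM, *Igtp* at 51.1 and 140 and *Irgm2* at 38.1 and 90.5. The median chondrocyte-like cell was deeper than those barcodes (median 9020 UMIs in PBS and 8312 in CFA, mostly hemoglobin). CPM therefore does not compare free RNA per barcode. Whether the chondrocyte-like levels are expression was not tested, and they are not read as such. The family went from 16.8 to 122 (7.30, 4.82 to 11.5), with a ratio of 1.56 with no hemoglobin limit and 30.9 with cells classed singly. In each library 1 cell held much of it, 44% of the family UMIs in PBS and 34.2% in CFA. Macrophage markers went from 0 CPM in PBS (0 of 7 detected) to 19.8 in CFA (5 of 7), with the family, and their part was not tested. As counted, *Irgm2* was present in 1 of the 57 PBS and 19 of the 78 CFA chondrocyte-like cells (1.75% and 24.4%), and in no cell of either library after thinning, where up to 6.27% and 4.62% remain possible.

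Blood cells that passed the CD45 depletion held another mix. Neutrophil-like cells (16 PBS and 182 CFA cells, the PBS cells too few to compare) carried *Ifi47* at 579 CPM in CFA, the highest *Ifi47* level of any class, with *Igtp* at 263, *Irgm2* at 182 and *Irgm1* at 141. *Iigp1* stood at 104 there. Immature neutrophil-like cells (55 and 169 cells) had *Ifi47* higher in CFA, 13.5 and 55.6 (4.11, 2.10 to 9.20), and *Iigp1* lower, 81.1 and 37.1 (0.457, 0.322 to 0.654), with 2 of 5 members at least 2-fold higher and 1 at least 2-fold lower, against 8.12% of genes higher and 11.4% at least 2-fold lower. Their family ratio of 1.14 (0.893 to 1.46) ranged from 0.531 with no hemoglobin limit to 3.21 without the cells of the 5% highest doublet scores. In those cells the endothelial markers went from 433 to 68.3 CPM (8 and 7 of 8 detected), in the direction of *Iigp1*, and macrophage markers from 138 to 686 (7 of 7 in both). Later B-like cells (147 and 89 cells) had no member past 2-fold, 0 of 3 against 3.41%, with the family at 119 and 90.1 (0.759, 0.537 to 1.06), an interval that held 1, and a ratio between 0.640 and 1.40 in the alternatives. Early B-like cells (62 and 61 cells) held 50 family UMIs in all, with a family ratio of 2.02 (1.09 to 3.87), and *Iigp1* was the only member with 20 UMIs there (1.93, 0.717 to 5.72), against 5.49% of genes at least 2-fold higher.

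Macrophage-like cells (30 PBS and 336 CFA cells) held *Iigp1* at 316 and *Ifi47* at 155 CPM in CFA, and 170.3 and 64.5 in the few PBS cells. Osteoclast-like macrophages, found in CFA alone (243 cells), were lower, with a family sum of 230.4. Nonmyelinating glia-like cells (46 and 52 cells) had the top *Irgm1* level in PBS, 88.7 CPM from 25 UMIs with an interval that overlapped that of endothelial-like cells, and 57.8 in CFA, an interval that held 1 for the ratio (0.652, 0.381 to 1.13). *Iigp1* there went from 3 to 130 UMIs (19.6, 6.56 to 96.3).

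The make-up of the family differed between cell types. Of all family UMIs in endothelial-like cells, *Iigp1* made up 82.5% in PBS (81.8% to 83.2%) and 69.8% in CFA (69.1% to 70.4%), while *Igtp* made up 2.76% and 9.07%. In fibroblast-like cells the share of *Iigp1* was the larger in CFA, 62.5% (59.5% to 65.4%) and 71.9% (71.0% to 72.9%). Myelinating Schwann-like cells gave *Iigp1* 33.9% and 28.6%, although their PBS levels of *Iigp1* and *Irgm2* are not read as expression. In CFA neutrophil-like cells *Ifi47* made up 42.5% (39.3% to 45.8%) and *Iigp1* 7.67%, and in CFA granulocyte-monocyte progenitor-like cells *Ifi47* made up 49.3% (44.95% to 53.7%).

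**Figure D4:**
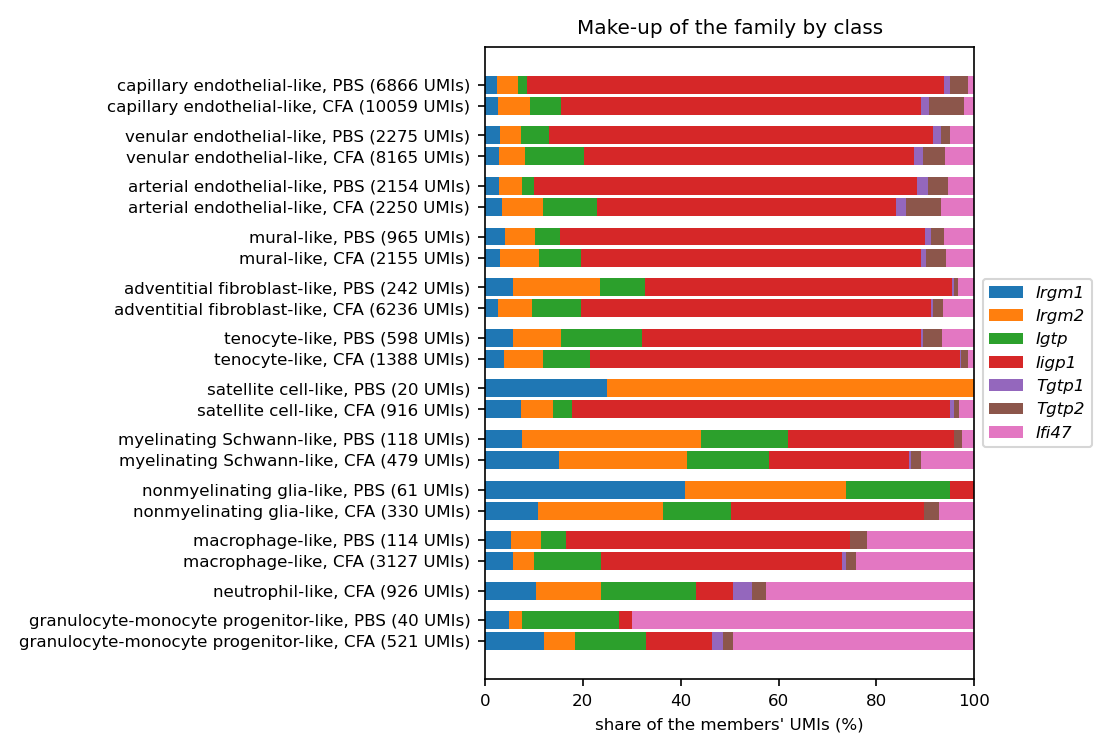
Share of each member in the UMIs of the 7 members (percent), by class and library, with the number of family UMIs in brackets. *Iigp1* filled most of the bars of vessel and connective tissue cells, *Irgm1* and *Irgm2* were larger in glia, and *Ifi47* in neutrophil-like and progenitor-like cells. The PBS levels of *Iigp1* and *Irgm2* in myelinating Schwann-like cells are not read as expression.

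Each member had its own order among the 18 PBS and 16 CFA classes ranked, which left out the classes with the fewest cells. *Tgtp2* was highest in endothelial-like cells, with 68.4 CPM in PBS against 15.1 in the next class and 187 in CFA against 39.7 in mural-like cells, intervals that did not overlap. *Tgtp1* was highest there too, at 54.3 in CFA with neutrophil-like cells at 52.9, which overlapped. *Iigp1* was highest in endothelial-like cells in both libraries without overlap of the next class. *Igtp* was highest in PBS in the 18 lymphatic-like cells, at 102 from 27 UMIs, ahead of endothelial-like cells without overlap. *Irgm2* and *Igtp* were highest in CFA in endothelial-like cells (192 and 278) and neutrophil-like cells (182 and 263), with overlapping intervals. *Irgm1* had its top CFA levels in neutrophil-like (141) and satellite cell-like cells (109.6), again overlapping. *Ifi47* was the member led by blood cells, with neutrophil-like cells ahead of macrophage-like cells without overlap in CFA.

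Over the 14 clusters or classes with at least 50 cells in both libraries, *Igtp* was at least 2-fold higher in CFA in 12 of the 13 in which it had 20 UMIs, and *Irgm2* in 10 of 12. *Ifi47* passed in 8 of 12, *Irgm1* in 6 of 11 and *Iigp1* in 7 of 14. Satellite cell-like cells are in the counts of *Igtp*, *Ifi47* and *Iigp1* through CFA UMIs alone, where passing was set by the floor. *Iigp1* was the only one of the 7 members with an interval wholly below 1, in 2 of the 14, the arterial endothelial-like and the immature neutrophil-like cells. Across the 28 levels (14 clusters or classes in 2 libraries), Pearson's r between pairs of members on log2(CPM + 10) ran from 0.620 (*Irgm2* and *Ifi47*) to 0.947 (*Tgtp1* and *Tgtp2*), with a median of 0.782, as a description only, since the points share libraries and *Tgtp1* and *Tgtp2* share sequence.

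Other genes of the same pathway were counted from lists of known members, each read against the share of all genes past 2-fold in the class, which was 5.01% in endothelial-like, 5.99% in arterial, 8.32% in adventitial and 3.41% in later B-like cells. The GBPs, large GTPases that act with the IRGs on pathogen vacuoles, had 8 of 10 members at least 2-fold higher in endothelial-like cells (median ratio 3.22, against 1.004 for all genes that had 20 UMIs or more in both libraries). *Gbp4* went from 92.6 to 747 CPM (8.07, 7.37 to 8.84) and *Gbp2* from 166 to 537 (3.22, 3.00 to 3.47). In adventitial fibroblast-like cells 10 of 10 GBPs passed (median 10.3), with *Gbp2* from 50.6 to 249 (4.91, 3.95 to 6.16), and in arterial endothelial-like cells 5 of 10 (median 2.27). The IRG genes outside the 7 members, of which 8 of the 9 listed were in the tables, had 3 of 7 past 2-fold in endothelial-like cells, with *Gm4951* from 32.1 to 202 (6.31, 5.40 to 7.396), and 5 of 6 in adventitial cells.

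Genes that interferon γ induces more than type I interferon does had the highest median ratio of the 6 lists in endothelial-like cells. In these cells 8 of 8 were at least 2-fold higher (median 15.04). *Cd74*, the chaperone of MHC class II, went from 43.6 to 695 CPM (15.9, 14.03 to 18.2) and the chemokine gene *Cxcl9* from 147 to 476 (3.23, 2.99 to 3.49). In adventitial cells 7 of 7 passed, with *Cxcl9* from 50.1 to 627 (12.5, 10.1 to 15.6). In later B-like cells, which make MHC class II at rest, 1 of 6 passed, and *Cd74* stood at 787 and 771 (0.980, 0.870 to 1.10).

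The type I interferon genes parted the classes. In endothelial-like cells 1 of 11 passed 2-fold, near the 5.01% of all genes (median 1.05), with *Rsad2* at 265 and 279 (1.05, 0.982 to 1.13) and *Isg15* lower in CFA, 280.3 and 198 (0.706, 0.656 to 0.760). In arterial cells 1 of 11 was at least 2-fold higher and 2 at least 2-fold lower, against 5.83% of all genes lower (median 0.589), with *Isg15* at 488 and 239 (0.490, 0.419 to 0.572). In adventitial cells 9 of 11 passed (median 5.24), with *Isg15* at 45.6 and 279.6 (6.13, 4.88 to 7.78) and *Ifit1* at 14.5 and 132 (9.12, 6.14 to 14.1). *Isg15* thus had opposite directions in arterial and adventitial cells, as a comparison of separate intervals that was not tested.

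Among the genes that carry the interferon γ signal, the transcription factor gene *Irf1* was lower in CFA in endothelial-like cells, 768 and 574 CPM (0.746, 0.715 to 0.780), and the kinase gene *Jak1* stood at 613 and 591 (0.964, 0.921 to 1.01). In adventitial cells the kinase gene *Jak2*, named after its value was seen, passed 2-fold (2.69, 1.98 to 3.72), and the receptor gene *Ifngr1* stood at 134 and 125 (0.933, 0.794 to 1.10). Of the 10 genes of Atg8 conjugation, 0 were at least 2-fold higher in endothelial-like or adventitial cells. In endothelial-like cells 1 was at least 2-fold lower, near the 5.99% of all genes lower there. It was *Map1lc3a*, from 84.2 to 39.8 (0.472, 0.405 to 0.550).

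**Figure D5:**
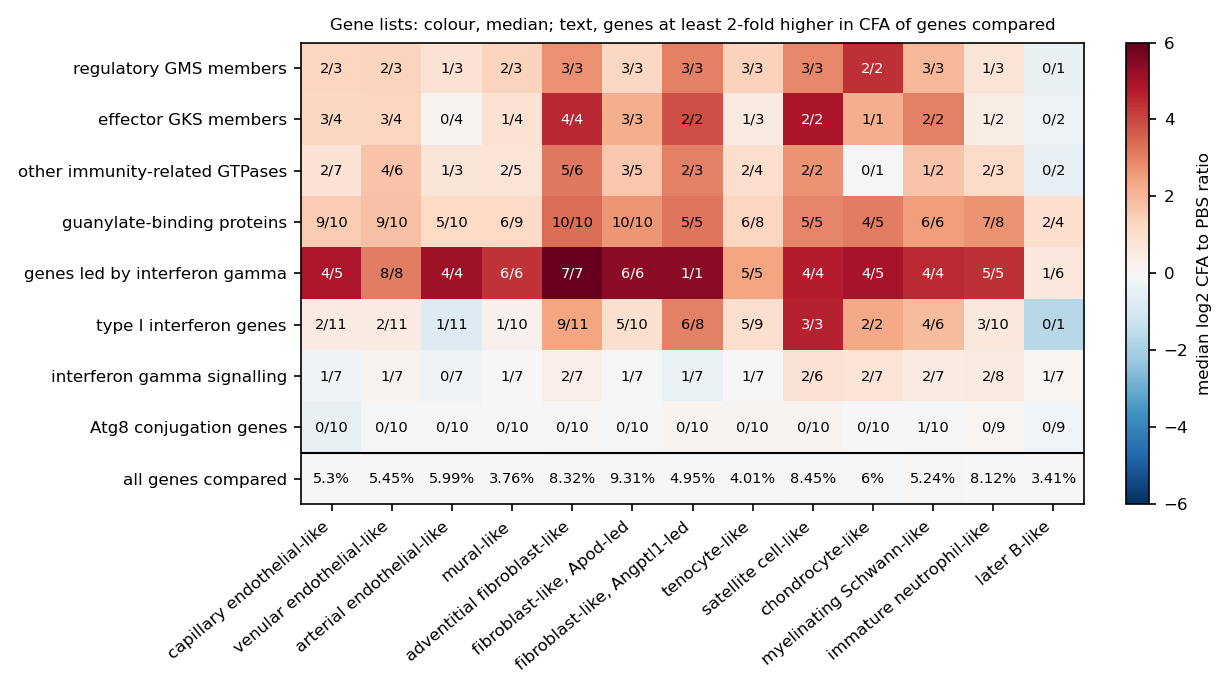
Number of genes at least 2-fold higher in CFA of those compared, for the 2 groups of members and 6 lists (lines) in 13 clusters or classes (columns), coloured by the median log2 CFA to PBS ratio, with colours ending at 6 on that scale, and the share of all genes past 2-fold in the bottom line. The guanylate-binding proteins and the genes led by interferon gamma held more such genes than the bottom line in each column, least so in later B-like cells with 2 of 4 and 1 of 6, and at most 1 Atg8 conjugation gene passed in any column.

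The genes whose levels were most like the summed family over the same 28 points, of 8567 genes compared, were *Gbp6* (r = 0.955), *Gbp3* (0.949), *Gbp7* (0.934), *Rnf213* (0.931), *Ifih1* (0.923), *Rtp4* (0.919), *Ifit1* (0.910), *Parp12* (0.909), *Oasl2* (0.897) and *Ifit3* (0.895). The 28 points share 2 libraries and the coefficients are a description of likeness.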

How the data were processed

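The 2 libraries, 1 of pooled PBS-injected and 1 of pooled CFA-injected TMJ, hold whole-number UMI counts per gene and barcode, which the authors made with Cell Ranger 7.0.1 against mm10 and deposited as filtered matrices. The annotation release was not given in the sources used here, and the kit version differed between the methods (v3.1) and the labels (v2). Barcodes with at least 500 genes, at most 10% mitochondrial and at most 1% hemoglobin UMIs were kept. After SCTransform (sctransform 0.4.2) and anchor integration on 3000 genes in Seurat 5.3.0 (R 4.3.3), cells were clustered on 200 principal components at a resolution of 1.5, without the interferon genes as features. A cluster was named from at least 3 detected markers of 1 list (in at least 25% of its cells, at least 2-fold higher than elsewhere), a rule changed once a first set of names was known, and a cluster with a median far below that of its libraries and no such marker among its 10 leading genes stayed unnamed. Scrublet (scanpy 1.11.5) marked 23 cells, too few to have worked, so doublets were kept and the 5% with the highest scores were left out as an alternative.

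UMIs were summed by class and library (Python 3.11.15, numpy 2.4.6, pandas 2.3.3). A group was 1 library, so there was no test and no p-value. Ratios have exact conditional binomial intervals, levels exact Poisson and shares Clopper-Pearson intervals, all at 95% (scipy 1.17.1). Classes were compared from 50 cells in each library, and genes from 20 UMIs in a class. A PBS count of 0 was set to a floor of 3 counts over the class. A gene was counted as past 2-fold. Shares were also taken after thinning cells to 1000 UMIs, for which 55 PBS and 129 CFA cells were too shallow. The 7 members are always named, examples of a list are up to 4 of its genes with the most UMIs in the class, and the 10 genes most like the family were ranked by Pearson's r. The intervals were tried on Poisson counts simulated from the endothelial-like means. Such counts hold no spread between cells, animals or libraries, so the trial does not show how the intervals do with such spread. Gene positions are from GENCODE M21. Some genes of the interferon γ signalling list are not reported here by name. The members, lists and markers were chosen with earlier results of these data known. Alternatives changed the limits on genes, mitochondrial and hemoglobin UMIs, scaling, averaging, clustering, naming, doublets and thinning, and those with the endothelial cluster of few UMIs, without shared barcodes, without *Iigp1* and for the arterial and adventitial clusters were added after seeing the data.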

Additional observations from a re-analysis of the deposited data

Results flagged for a closer look

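*Iigp1* was lower in CFA in arterial endothelial-like cells, with a ratio of 0.792 (0.737 to 0.851), and in immature neutrophil-like cells, with a ratio of 0.457 (0.322 to 0.654), while it was higher in CFA in capillary and venular endothelial-like cells. With 1 library per group the difference between the cell types was not tested. In immature neutrophil-like cells the endothelial markers also went down, from 433 CPM in PBS to 68.3 in CFA. Their family ratio ranged from 0.531 to 3.21 in the alternatives, and *Iigp1* on its own was not recomputed there.

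The members were also counted in barcodes left out of every comparison. In barcodes with at least 50% hemoglobin UMIs (310 PBS, 190 CFA) the family stood at 187 CPM without hemoglobin UMIs in PBS and 411 in CFA, a ratio of 2.20 (1.79 to 2.70). In barcodes with fewer than 500 genes (76 PBS, 215 CFA) it stood at 379.6 and 924, a ratio of 2.43 (1.49 to 4.18).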

How the results depend on the processing

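No paired analysis was possible because each group was 1 library and no test was run. Of 290 ratios under the alternatives, 233 moved by less than their counting interval and 57 by more, and none whose interval lay wholly on 1 side of 1 crossed it. The causes were not tested. The family ratio over all kept cells became 2.002 with no hemoglobin limit, 1.95 when scaled by the median gene and 1.77 as a mean over cells. In endothelial-like cells it became 1.44 as a mean over cells, 1.49 with log-normalized counts without integration, and 1.52 both without the 5% highest doublet scores and with cells classed singly. In fibroblast-like cells it became 9.54 with no hemoglobin limit, 7.30 as a mean over cells and 6.401 with log-normalized counts without integration. In myelinating Schwann-like cells it became 5.87 without the 5% highest doublet scores and 3.29 with cells classed singly. In early B-like cells it lay between 1.61 and 4.00. Without *Iigp1* the other 6 members had a ratio between 2.48 and 2.98 over all kept cells. Shares of cells with a UMI depend on depth, and *Tgtp1* and *Tgtp2* cannot be separated by these reads.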

Other observations

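Transcripts of *Ifng*, the gene of interferon γ, were rare. The PBS library held 2 UMIs in 2 cells and the CFA library 258 UMIs in 24 cells. Of the CFA UMIs, 198 were in 10 of the 88 CFA cells of an unnamed cluster led by *Stat4* and *Flt3*, which also held both PBS UMIs (45 PBS cells). The others were in macrophage-like (24 UMIs), immature neutrophil-like (20 UMIs), osteoclast-like macrophage (12 UMIs), granulocyte-monocyte progenitor-like (3 UMIs) and mural-like cells (1 UMI), and endothelial-like and adventitial cells held 0.

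Classes with under 50 cells in a library are given as values. Lymphatic-like cells (18 PBS, 10 CFA) held *Iigp1* at 462 and 1801 CPM (3.90, 3.15 to 4.85). Osteoblast-like cells (35 PBS, 28 CFA) had *Iigp1* at 262 and 524 CPM, and *Igtp* lower in CFA, at 42.04 and 14.4 (0.344, 0.132 to 0.801). Lining fibroblast-like cells (30 PBS, 6 CFA) held a family sum of 39.2 and 1102 (28.1, 17.7 to 46.7).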
